A study of Mus musculus with 6 samples.

Results

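Whether GABA and glycine inhibit or excite a neuron depends on the chloride gradient across its membrane. Here 9 genes of chloride transport, of related channel families and of bicarbonate supply were examined in the parvafox nucleus. The nucleus is a small cluster of parvalbumin-positive neurons in the ventrolateral hypothalamus of the mouse. The genes are the cation-chloride cotransporter genes Slc12a2, Slc12a4, Slc12a5 and Slc12a7, the chloride channel and exchanger genes Clcn2 and Clcn3, the anoctamin genes Ano2 and Ano4, and Car7, which encodes a carbonic anhydrase. They were chosen by name, as genes with related roles. All 9 are among the 22180 genes that have a probe set with exactly 1 gene symbol on the array, and each is represented by its brightest probe set over the arrays.

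RNA was measured on 6 arrays (Affymetrix Mouse Gene 2.0 ST), which hold 41345 probe sets each. They cover the parvafox nucleus, piriform and entorhinal fields of the cerebral cortex, and the hippocampus (the CA2 and CA3 fields), cut by laser from frozen sections of the same 2 brains, mouse 355 and mouse 511. Both mice were adults of the strain C57BL/6 with no treatment named, although the label of the nucleus sample of mouse 511 gives no strain, and both were picked by the study because their RNA was the best preserved. The cut follows the outline of a region, so every sample holds neurons, glia and vessels together, and fewer cells of a type cannot be told apart from less RNA per cell.

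Neurons take chloride up through the sodium-potassium-chloride cotransporter NKCC1, encoded by Slc12a2, and push it out through the potassium-chloride cotransporter KCC2, encoded by Slc12a5. Where extrusion prevails, opening of GABA-A or glycine receptors lets chloride in and silences the cell, and where uptake prevails the same receptors can depolarize it. The CLC protein of Clcn2 and some anoctamins add chloride pathways opened by voltage or by calcium, and carbonic anhydrase supplies bicarbonate, the second ion that GABA-A receptors conduct. In the adult brain KCC2 is a protein of neurons, while NKCC1 is also made by oligodendrocytes, astrocytes and the choroid plexus.

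Of the 9 genes, Ano4 had the clearest difference, with a signal in the nucleus 2.61-fold that of the cortex and 2.82-fold that of the hippocampus. Slc12a2 was brightest in the nucleus in both mice and dimmest in the hippocampus, whereas the signal of its counterpart Slc12a5 was nearly the same in the nucleus and the cortex. Ano2 went the other way and was dimmest in the nucleus. None of these differences passed limma's test over all probe sets, and only the Ano4 difference reached 2-fold in every within-mouse comparison.

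The start sites of 2 genes are shown, that of Ano4 because its regional difference was the clearest, and those of Slc12a5 because its signal may sum over transcripts from different starts. RefSeq (build GRCm38.p6) gives Ano4 a single start and Slc12a5 a pair of starts, from which transcripts with different first exons begin. The array has 1 probe set for Slc12a5 and does not separate these transcripts. The 250 bases before each start follow, read 5′ to 3′ on the strand of the gene, with capitals marking a CCAAT box (CCAAT or its reverse complement ATTGG), a GC box (GGGCGG or CCGCCC) or an E-box (CACGTG).
Ano4, chr10:89257791-89258040, minus strand: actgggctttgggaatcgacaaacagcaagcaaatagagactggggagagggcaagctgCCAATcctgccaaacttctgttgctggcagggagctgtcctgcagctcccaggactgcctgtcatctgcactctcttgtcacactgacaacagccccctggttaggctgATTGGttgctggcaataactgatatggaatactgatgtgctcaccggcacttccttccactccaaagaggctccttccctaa
Slc12a5 start 1, chr2:164960596-164960845, plus strand: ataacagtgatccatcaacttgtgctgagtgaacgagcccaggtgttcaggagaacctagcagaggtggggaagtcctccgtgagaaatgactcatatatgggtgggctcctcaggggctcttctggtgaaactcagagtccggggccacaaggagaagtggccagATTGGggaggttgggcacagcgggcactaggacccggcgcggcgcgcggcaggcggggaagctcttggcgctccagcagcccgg
Slc12a5 start 2, chr2:164967738-164967987, plus strand: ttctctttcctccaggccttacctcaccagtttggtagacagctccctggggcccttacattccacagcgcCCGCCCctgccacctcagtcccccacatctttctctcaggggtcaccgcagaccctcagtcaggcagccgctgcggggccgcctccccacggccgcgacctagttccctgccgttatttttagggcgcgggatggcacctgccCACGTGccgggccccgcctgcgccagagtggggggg
The stretch before Ano4 held 2 CCAAT boxes and no GC box or E-box, with a G and C content of 53.2%. The first start of Slc12a5 had 1 CCAAT box in a stretch of 61.2% G and C, and the second had 1 GC box and 1 E-box in a stretch of 67.2% G and C. Over the same length, on both strands, a CCAAT box occurred in 33.8% of 32851 promoters, a GC box in 32.7%, the E-box in 6.02% and a TATA box (TATAAA) in 12.4%. None of the 15 starts of the 8 genes with an entry had a TATA box. These are letter matches only, and no binding was measured.

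The regions were first compared by marker genes of the lateral hypothalamus, of subcortical neurons and of cortical and hippocampal neurons. These cannot tell the parvafox nucleus from the lateral hypothalamus around it. Pvalb and Foxb1, the genes after which the nucleus is named, were not among the markers. Pmch, the melanin-concentrating hormone gene of the lateral hypothalamus, had log2 signals of 10.24 and 9.81 in the nucleus of mouse 355 and mouse 511, and at most 4.19 on any reference array, while Hcrt, the gene of the neighboring orexin neurons, stayed between 2.73 and 3.74 on all arrays, where the median probe set of an array lay between 3.54 and 3.68. Slc17a7, the vesicular glutamate transporter gene of cortical and hippocampal principal neurons, had 4.13 and 3.27 in the nucleus against 9.51 and 9.96 in cortex and 9.83 and 9.79 in hippocampus. The cortex of mouse 355 differed from that of mouse 511 in some markers, with 5.27 against 9.28 for the principal neuron gene Neurod6. For Slc17a6, the glutamate transporter gene of subcortical neurons, it had 8.24 against 6.24. Other markers were close, as Slc30a3 of telencephalic excitatory neurons with 9.54 and 9.49 in the cortex of mouse 355 and mouse 511. The hippocampus arrays also differed in Slc17a6, with 4.29 in mouse 355 and 6.28 in mouse 511. The fitted difference to the cortex is therefore also given with either cortex array left out, for the 9 genes and for the related genes whose fold change against the cortex is printed.

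In the plot of the signal on each array the genes fall into 3 sets. The nucleus arrays lay above all 4 reference arrays for Slc12a2 and Ano4, which is 2 of 9 genes, against a background of 10.7% of all genes. They lay below all 4 for Slc12a4 and Ano2, against a background of 10.3%. For Slc12a5, Slc12a7, Clcn2, Clcn3 and Car7 the nucleus lay within or across the range of the reference arrays.

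**Figure D1:**
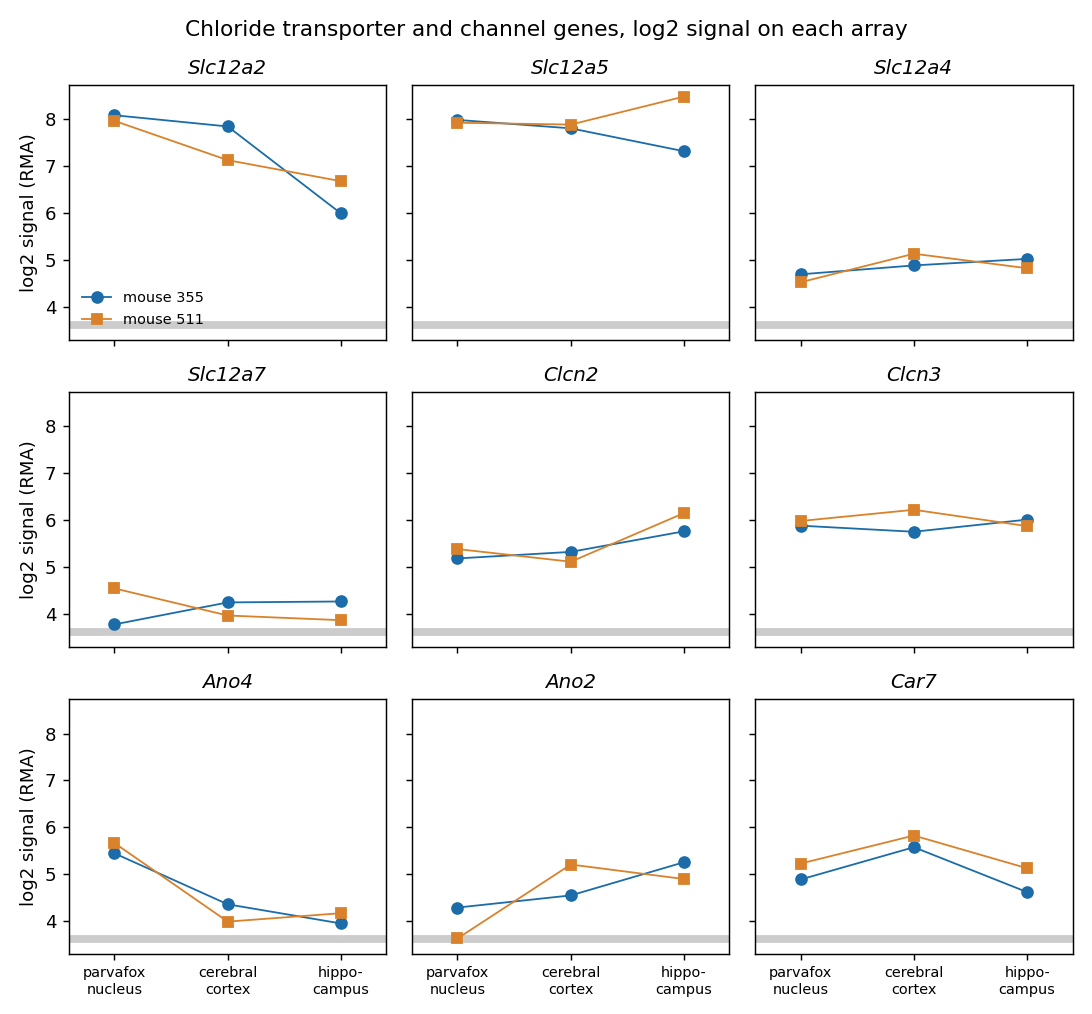
The log2 signal (RMA) of each of the 9 genes is plotted on the vertical axis for nucleus, cortex and hippocampus, with 1 point per array, circles and squares for the mice, lines joining the regions of a mouse, and a grey band at the medians of the arrays (3.54 to 3.68). Ano4 and Slc12a2 are highest in the nucleus of both mice, Ano2 is lowest there, and Slc12a7 and Ano2 come closest to the grey band.

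The question for each gene was whether its signal in the nucleus differs from that in the other regions of the same brain. Against the cortex, 0 of the 9 genes passed the adjusted p threshold of 0.05 in limma, as did 0% of all probe sets, and 2 genes (Ano4 and Car7) had an unadjusted p under 0.05, with 7.86% of all genes. Against the hippocampus, 0 passed, with 0.00242% of all probe sets (the 1 of Pmch), and 4 genes (Ano4, Slc12a2, Ano2 and Clcn2) had an unadjusted p under 0.05, with 10.4% of all genes. Between cortex and hippocampus, 0 passed, with 0% of all probe sets, and 3 genes (Car7, Clcn2 and Slc12a2) had an unadjusted p under 0.05, with 4.22% of all genes. The comparisons share arrays and are not independent of each other. The median size of the difference over the 9 genes was 0.40 on the log2 scale against the cortex and 0.32 against the hippocampus, where all genes had 0.20 and 0.21, and it was 0.11 between cortex and hippocampus, where all genes had 0.17.

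**Figure D2:**
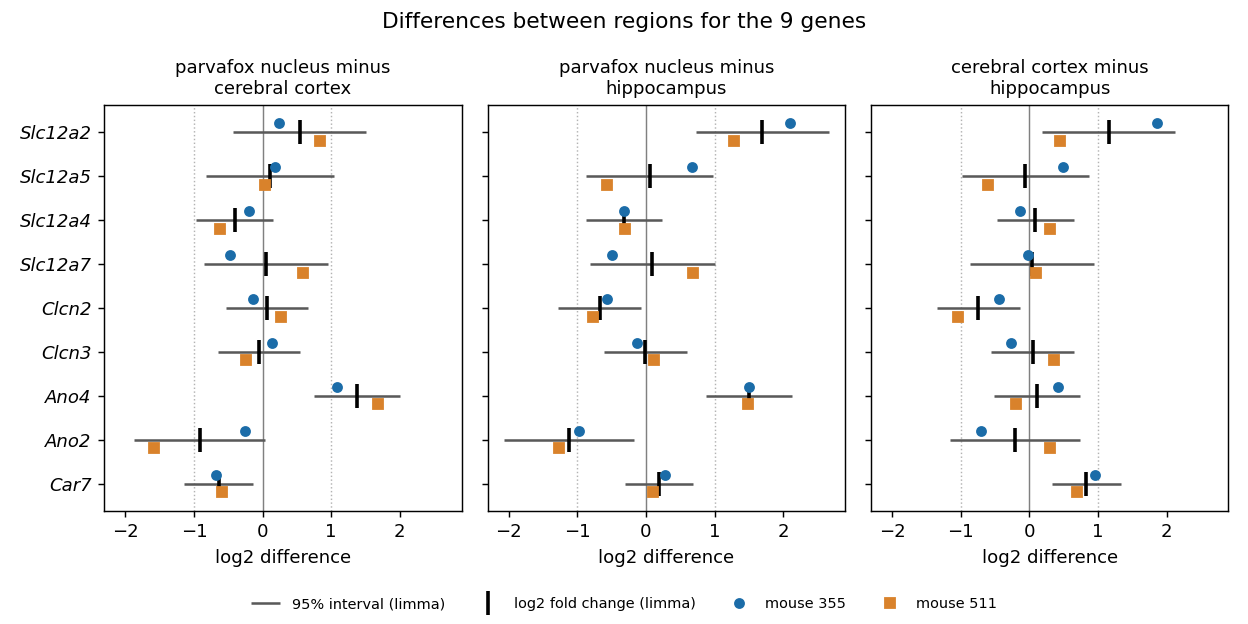
Log2 differences between regions are plotted on the horizontal axis for the 9 genes, with 1 panel per comparison, circles and squares for the within-mouse differences, black ticks for the limma log2 fold change and grey lines for its 95% interval. Dotted lines mark a 2-fold difference, which all 4 nucleus points of Ano4 exceed, and the intervals of Slc12a5, Slc12a7 and Clcn3 include 0 in all 3 panels.

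The chloride importer gene Slc12a2 followed a gradient over the regions. Its log2 signal was 8.09 and 7.97 in the nucleus of mouse 355 and mouse 511, 7.85 and 7.13 in cortex, and 5.99 and 6.68 in hippocampus, so that the regions did not overlap. Against the hippocampus the nucleus was 4.30-fold brighter in mouse 355 and 2.44-fold brighter in mouse 511. The log2 fold change was 1.70 (standard error 0.37, 95% interval 0.73 to 2.67, adjusted p = 0.324 from limma, unadjusted p = 0.007). Against the cortex the mice differed, with 1.18-fold in mouse 355 and 1.79-fold in mouse 511, and the log2 fold change of 0.54 (95% interval -0.43 to 1.51, adjusted p = 0.776) was no larger than the spread. It rested on the cortex of mouse 511, for without that array it was 0.04 (adjusted p = 1), and it was 1.04 without the cortex of mouse 355 (adjusted p = 0.67). The cortex was brighter than the hippocampus by 1.15 on the log2 scale (95% interval 0.18 to 2.13, adjusted p = 0.999), by 0.65 without the cortex of mouse 355 and by 0.60 without the hippocampus of that mouse.

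The chloride exporter gene Slc12a5 had no such gradient. Its log2 signal was 7.99 and 7.93 in the nucleus, 7.81 and 7.89 in cortex, and 7.32 and 8.49 in hippocampus. Nucleus and cortex lay within 0.18 of each other in either mouse, and the hippocampus was below the nucleus in mouse 355 and above it in mouse 511. The log2 fold change of the nucleus was 0.11 relative to cortex (95% interval -0.82 to 1.04, adjusted p = 0.964 from limma) and 0.05 relative to hippocampus (95% interval -0.88 to 0.98, adjusted p = 0.982). The difference to the cortex was 0.34 with the cortex of mouse 355 left out and -0.13 with the cortex of mouse 511 left out. The 95% intervals leave room for differences of close to 2-fold either way.

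Because the importer and the exporter work against each other, their log2 signals were also subtracted within each array. Probes of different genes differ in brightness, so the difference has no absolute meaning and only its change between regions can be read. For mouse 355 and mouse 511 it was 0.11 and 0.04 in the nucleus, 0.04 and -0.76 in cortex, and -1.33 and -1.80 in hippocampus. The value of the nucleus exceeded that of the hippocampus by 1.44 in mouse 355 and 1.85 in mouse 511, a mean of 1.64 on the log2 scale. It exceeded that of the cortex by 0.06 in mouse 355 and 0.80 in mouse 511, a mean of 0.43. The cortex exceeded the hippocampus by 1.37 and 1.05. No test was made of this quantity, which was computed with earlier results known.

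The markers of myelin-forming oligodendrocytes moved with Slc12a2. Both nucleus arrays were above both hippocampus arrays for 9 of 9 measured markers and above both cortex arrays for 8 of 9, and the cortex was above the hippocampus for 9 of 9. The share of all genes with such an order of 2 regions was not counted, here or for the marker lists below. With 2 arrays per region such an order can also arise by chance. The mean log2 signal of the 9 markers was 9.02 and 8.99 in the nucleus, 8.70 and 8.23 in cortex, and 6.35 and 7.13 in hippocampus. This mean put the 6 arrays in the same order as Slc12a2 did, and the share of all genes with that order was not counted. Not every marker had that order. Mbp had 8.7 in the nucleus of mouse 355 and 8.9 in that of mouse 511. Cldn11 had 9.87 in the nucleus of mouse 511, below its 10.1 and 10.03 in cortex. Mog, a protein of the myelin surface, had 9.01 and 8.62 in the nucleus, 8.35 and 7.64 in cortex, and 5.72 and 6.98 in hippocampus. The part of these cells in the Slc12a2 signal was not tested. The astrocyte markers were also higher in part, with both nucleus arrays above both cortex arrays for 5 of 9 and above both hippocampus arrays for 5 of 9, and below them for 1 and 2. Their mean was 7.92 and 8.32 in the nucleus, 7.63 and 7.28 in cortex, and 7.90 and 7.57 in hippocampus. In mouse 355 the nucleus and hippocampus means were thus nearly the same, and single markers went both ways. There Agt, a gene on the study's list of enriched genes, had 9.80 in the nucleus and 8.09 in hippocampus, while Gfap had 6.69 and 8.54. Of 6 markers of choroid plexus, ependyma and meninges, both nucleus arrays were above both cortex arrays for 1 and above both hippocampus arrays for 1, and below them for 1 and 4. Of the choroid plexus genes, Ttr had at most 4.01 and Folr1 at most 3.61 in the nucleus, close to the array medians, against at most 3.84 and 3.98 in cortex, and 5.15 and 3.68 in hippocampus.

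**Figure D3:**
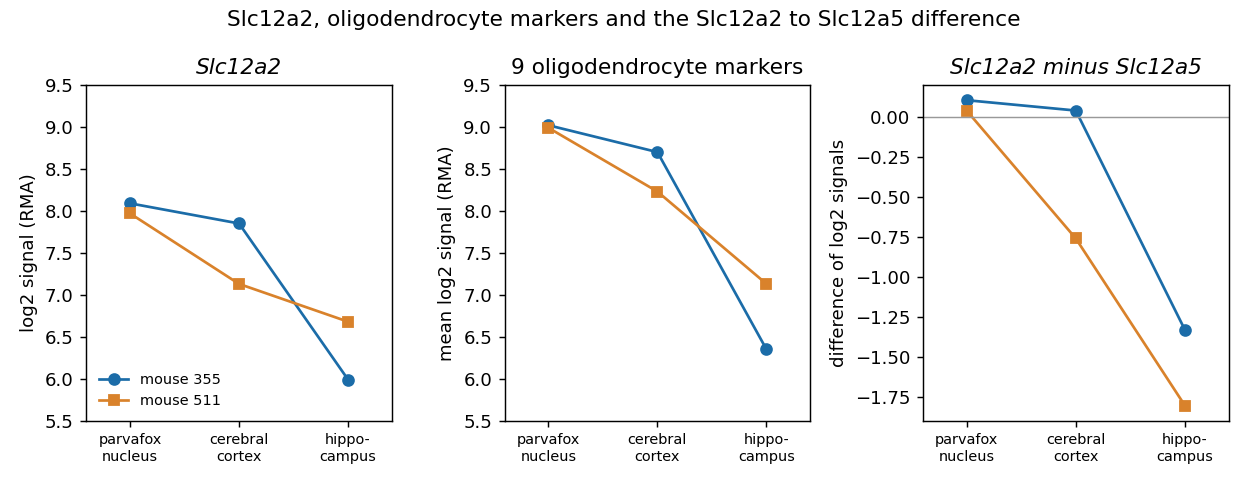
For each array, by region and mouse, the left panel plots the log2 signal of Slc12a2, the middle panel the mean log2 signal of 9 oligodendrocyte markers, and the right panel the log2 signal of Slc12a2 minus that of Slc12a5. All 3 quantities are lowest in the hippocampus of both mice, where the right panel has -1.33 and -1.80, against 0.11 and 0.04 in the nucleus.

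The remaining potassium-chloride cotransporters were dim. KCC1, the widely expressed cotransporter that serves cell volume, is encoded by Slc12a4, which had log2 signals of 4.69 and 4.52 in the nucleus, 4.88 and 5.13 in cortex, and 5.02 and 4.82 in hippocampus. The nucleus was lowest in both mice, with a log2 fold change of -0.40 relative to cortex (95% interval -0.96 to 0.15, adjusted p = 0.719 from limma) and -0.32 relative to hippocampus (95% interval -0.88 to 0.24, adjusted p = 0.716). The difference to the cortex was -0.62 without the cortex array of mouse 355, -0.19 without that of mouse 511, and -0.20 as the mean over the gene's probe sets. A second and dimmer probe set of Slc12a4 did not repeat this order, with 4.32 and 3.86 in the nucleus, 4.24 and 3.94 in cortex, and 4.56 and 4.17 in hippocampus. Slc12a7, which encodes KCC4, had 3.77 and 4.54 in the nucleus, 4.24 and 3.96 in cortex, and 4.26 and 3.86 in hippocampus. The nucleus of mouse 355 was the lowest of these and that of mouse 511 the highest, and all lay within 0.90 of the median of their array. Its log2 fold change was 0.06 relative to cortex, but 0.29 with the cortex of mouse 355 left out and -0.18 with the cortex of mouse 511 left out.

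The CLC family combines channels of the cell surface with exchangers of inner membranes. Clcn2 encodes ClC-2, a surface channel that opens on hyperpolarization and can let chloride leave neurons and glia. Its log2 signal was 5.18 and 5.38 in the nucleus, 5.32 and 5.11 in cortex, and 5.76 and 6.15 in hippocampus, where it was brightest in both mice. The log2 fold change was -0.67 for the nucleus relative to hippocampus (95% interval -1.27 to -0.07, adjusted p = 0.483 from limma, unadjusted p = 0.034), and -0.74 for the cortex relative to hippocampus (95% interval -1.34 to -0.14, adjusted p = 0.999), or -0.99 without the cortex of mouse 355 and -0.49 without the cortex of mouse 511. Between nucleus and cortex the difference was 0.07 (95% interval -0.53 to 0.67) and ran in opposite directions in the mice, with 0.32 when the cortex array of mouse 355 was left out and -0.19 when that of mouse 511 was. Clcn3 encodes ClC-3, a chloride-proton exchanger of endosomes and synaptic vesicles, and it had the smallest range over the arrays among the 9 genes. It had 5.88 and 5.98 in the nucleus, 5.75 and 6.22 in cortex, and 6.01 and 5.87 in hippocampus. Its log2 fold change was -0.06 relative to cortex (95% interval -0.66 to 0.55) and -0.0066 relative to hippocampus (95% interval -0.61 to 0.59), and the difference to the cortex was -0.30 with the cortex of mouse 355 left out and 0.19 with the cortex of mouse 511 left out.

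Anoctamins are membrane proteins opened or switched on by calcium, of which some conduct chloride and others move lipids between the leaflets of the membrane. For the product of Ano4, calcium-dependent cation currents and lipid scrambling have been described in transfected cells, so its place among chloride channels is less settled than that of Ano2. Ano4 had log2 signals of 5.44 and 5.66 in the nucleus, 4.35 and 3.98 in cortex, and 3.94 and 4.16 in hippocampus. The lowest nucleus value was thus more than 1 log2 unit above the highest reference value. In mouse 355 the nucleus was 2.12-fold above the cortex and 2.83-fold above the hippocampus, and in mouse 511 it was 3.20-fold and 2.81-fold above them. The log2 fold change was 1.38 relative to cortex (standard error 0.24, 95% interval 0.75 to 2.01, adjusted p = 0.415 from limma, unadjusted p = 0.003) and 1.5 relative to hippocampus (standard error 0.24, 95% interval 0.87 to 2.12, adjusted p = 0.254, unadjusted p = 0.002). Cortex and hippocampus differed by 0.11 (95% interval -0.51 to 0.74). Without the cortex of mouse 355, the difference to the cortex was 1.68 (adjusted p = 0.418), and without the cortex of mouse 511 it was 1.08 (adjusted p = 0.915). Of 4 markers of hypothalamic and other subcortical neurons, 3 (Pmch, Slc17a6 and Adcyap1) had both nucleus arrays above all reference arrays, as Ano4 and 10.7% of all genes did. The part of such neurons in the Ano4 signal was not tested.

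The study took a gene as enriched when its signal in the nucleus was 2-fold that of both other regions in each mouse, a rule without a test. Ano4 was the only one of the 9 genes to meet it, against a background of 0.216% or 48 of all genes, and none was 2-fold lower throughout, against 0.672% or 149. Ano4 stands on the study's own list of enriched genes, which was drawn from these samples, so its passing is no independent evidence. In the study's check against the in situ images of the Allen Brain Atlas, Ano4 was marked as positive in the atlas. It was not marked as positive for the lateral hypothalamus or for the parvafox nucleus. On the reference arrays its signal was as little as 0.27 above the array median. Over the 6 arrays, the genes most like Ano4 by Pearson's r, among 5816 genes whose signal spanned at least 1 log2 unit, were Cradd (0.995), Surf1 (0.994) and Sfrp5 (0.992). These r values describe 6 arrays that share 3 regions and 2 mice, and they carry no test. Sfrp5, which encodes a secreted Wnt inhibitor, had 6.79 and 7.28 in the nucleus, 5.01 and 3.74 in cortex, and 4.03 and 4.26 in hippocampus.

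Ano2 encodes a calcium-activated chloride channel known from olfactory sensory neurons and, in the mouse, from hippocampal and thalamic neurons. Its signal was 4.28 and 3.62 in the nucleus, 4.54 and 5.20 in cortex, and 5.25 and 4.89 in hippocampus, so both nucleus arrays were below every reference array, and that of mouse 511 was at the median of its array. Relative to the hippocampus the nucleus stood at 0.51-fold in mouse 355 and 0.41-fold in mouse 511, and the fitted log2 fold change was -1.12 (standard error 0.36, 95% interval -2.07 to -0.17, adjusted p = 0.467 from limma, unadjusted p = 0.029). Relative to the cortex it stood at 0.84-fold and 0.34-fold, with a log2 fold change of -0.92 (95% interval -1.87 to 0.03, adjusted p = 0.642), or -1.5 without the cortex of mouse 355 (adjusted p = 0.454). It shrank to -0.34 without the cortex of mouse 511 (adjusted p = 1) and to -0.51 without the nucleus of mouse 511 (adjusted p = 0.939). Leaving out that nucleus array also left -0.71 relative to hippocampus (adjusted p = 0.807), so the size of the Ano2 difference rested much on mouse 511. Ano4 and Ano2 thus had opposite signs in all 4 within-mouse comparisons. The markers of telencephalic excitatory neurons moved with Ano2, with 5 of 5 below both reference regions in the nucleus and a mean of 4.95 and 4.97 there, 7.82 and 9.10 in cortex, and 8.57 and 8.58 in hippocampus. The GABAergic neuron markers Gad1, Gad2 and Slc32a1 did so too, 3 of 3, with a mean of 5.21 and 4.61 in the nucleus, 6.66 and 7.16 in cortex, and 6.28 and 6.59 in hippocampus. Of 6 microglia markers 4 were below the cortex and 4 below the hippocampus on both nucleus arrays, and of 8 pan-neuronal markers 4 and 3 were. Over all genes, 10.3% had both nucleus arrays below all 4 reference arrays, and the share below a single region was not counted. The part of these cell types in the Ano2 signal was not tested.

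Car7 encodes the cytosolic carbonic anhydrase VII of neurons, whose bicarbonate supply lets intense GABA-A receptor activity turn depolarizing. It was brightest in the cortex in both mice. The log2 signal was 4.88 and 5.22 in the nucleus, 5.57 and 5.82 in cortex, and 4.61 and 5.12 in hippocampus. The nucleus was lower than the cortex in both mice, with log2 differences of -0.68 in mouse 355 and -0.60 in mouse 511 and a fitted log2 fold change of -0.64 (standard error 0.19, 95% interval -1.14 to -0.14, adjusted p = 0.57 from limma, unadjusted p = 0.022). Without the cortex of mouse 355 it was -0.55 (adjusted p = 0.764), and without that of mouse 511 -0.73. The cortex was higher than the hippocampus by 0.83 (95% interval 0.33 to 1.33, adjusted p = 0.98, unadjusted p = 0.008), and nucleus and hippocampus differed by 0.19 (95% interval -0.31 to 0.69, adjusted p = 0.817).

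Around these 9 genes stand the regulators, relatives and partners of chloride transport, for which 8 lists of 83 gene symbols were drawn up. Of these, 75 had a probe set of 1 symbol, and some of the others are older symbols of genes that are among the 75. In limma, 0 of the 75 passed in any comparison (the lowest adjusted p was 0.31 for nucleus and cortex and 0.152 for nucleus and hippocampus), while 9 (12%) had an unadjusted p under 0.05 against the cortex, 16 (21.3%) against the hippocampus and 8 (10.7%) between cortex and hippocampus. Over all genes these shares were 7.86%, 10.4% and 4.22%. By the 2-fold rule 1 (1.33%) was higher and 2 (2.67%) were lower in the nucleus, where all genes had 0.216% and 0.672%. The median of the mean within-mouse difference was 0.11 over the 75 genes and 0.01 over all genes.

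**Figure D4:**
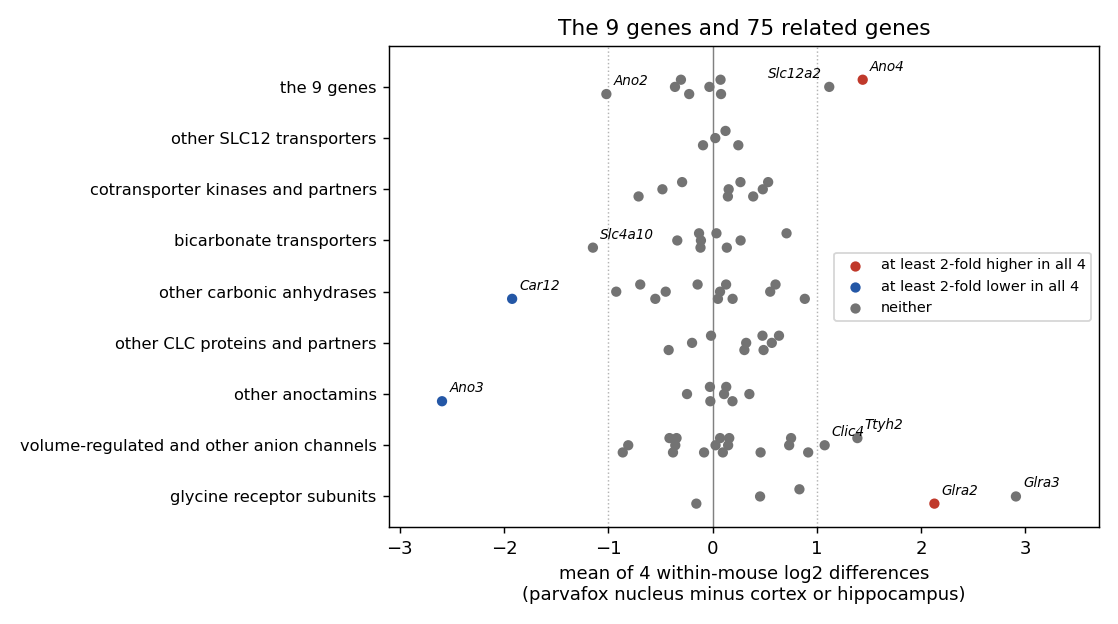
The mean of the 4 within-mouse log2 differences between the parvafox nucleus and the reference regions is plotted on the horizontal axis, with 1 point per gene, for the 9 genes and for 8 lists of related genes. Red points (Ano4 and Glra2) are at least 2-fold higher and blue points (Ano3 and Car12) at least 2-fold lower in all 4 comparisons, and dotted lines mark a mean of 2-fold.

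The kinases WNK and SPAK/OSR1 phosphorylate the cotransporters, which switches NKCC1 on and the KCCs off. Of 9 measured genes of this group, 0 reached 2-fold throughout, and the list's median difference was 0.15. Wnk2 was lower in the nucleus in both mice, with 6.08 and 6.15 against 6.44 and 6.60 in cortex and 6.64 and 6.71 in hippocampus (adjusted p = 0.682 and 0.469 from limma). Neto2, whose product binds KCC2 as well as kainate receptors, had 6.28 and 6.48 in the nucleus, 7.08 and 7.86 in cortex, and 6.28 and 7.16 in hippocampus. Oxsr1, which encodes OSR1, had 5.29 and 6.40 in the nucleus, 5.31 and 5.11 in cortex, and 5.18 and 5.65 in hippocampus, so that only the nucleus of mouse 511 stood out. Of the other SLC12 genes, 4 of 5 were measured, their median difference was 0.07, and the kidney cotransporter genes Slc12a1 and Slc12a3 stayed at or below 3.28 on every array.

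Among 9 measured bicarbonate transporter genes none reached 2-fold throughout. Slc4a10, which encodes a sodium-driven transporter of neurons, had 7.00 and 7.46 in the nucleus, 8.33 and 7.98 in cortex, and 8.35 and 8.85 in hippocampus. It was lower in the nucleus in all 4 comparisons, with log2 fold changes of -0.93 relative to cortex (adjusted p = 0.575 from limma) and of -1.37 relative to hippocampus (adjusted p = 0.311). The first of these was -0.51 without the cortex of mouse 355 and -1.34 without that of mouse 511. Slc4a4, the sodium bicarbonate cotransporter gene of astrocytes, was higher in the nucleus in all 4, with 8.37 and 8.82 there, 8.25 and 7.61 in cortex, and 7.94 and 7.73 in hippocampus. Slc4a3, the anion exchanger AE3, had 6.79 and 6.21 in the nucleus against 6.82 and 6.88 in cortex and 6.81 and 6.86 in hippocampus. Of 13 measured carbonic anhydrase genes besides Car7, Car12 was lower throughout. This gene of a membrane-bound enzyme that faces the outside of the cell had 4.42 and 4.28 in the nucleus, 6.37 and 6.50 in cortex, and 6.40 and 5.82 in hippocampus (log2 fold changes -2.09 and -1.76, adjusted p = 0.31 and 0.226). The difference to the cortex was -2.34 with the cortex of mouse 355 left out and -1.84 with the cortex of mouse 511 left out. Car11 and Car8 are family members that have lost the enzyme's activity, and they had opposite signs. Car11 was lower in all 4 comparisons, with 8.14 and 8.92 in the nucleus, 8.97 and 9.87 in cortex, and 9.75 and 9.23 in hippocampus. Car8 was higher in all 4, with 7.01 and 6.42 in the nucleus, 6.13 and 5.41 in cortex, and 5.98 and 5.82 in hippocampus.

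Among the other 8 anoctamins, Ano3 was the single gene past the 2-fold rule, and it was lower. Ano3, a gene mutated in a human dystonia, had 4.44 and 4.63 in the nucleus, 6.77 and 7.73 in cortex, and 7.06 and 6.98 in hippocampus, with log2 fold changes of -2.71 (standard error 0.31, adjusted p = 0.31 from limma) and -2.48 (standard error 0.31, adjusted p = 0.211). Leaving out the cortex array of mouse 355 made the first of these -3.16, and leaving out that of mouse 511 made it -2.26. Ano1, the calcium-activated chloride channel of secretory epithelia and smooth muscle, was dim on every array, with 3.61 and 3.30 in the nucleus, 3.28 and 2.92 in cortex, and 3.21 and 3.0 in hippocampus. The anoctamin genes thus held 1 that was higher in the nucleus (Ano4), 1 that was lower (Ano3) by the same rule, and Ano2, which was lower without reaching 2-fold in each comparison.

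In the CLC group, 9 of 12 listed symbols were measured, none reached 2-fold throughout, and the list's median difference was 0.32. Hepacam, whose product GlialCAM holds ClC-2 at the contacts of glia, had 8.09 and 8.72 in the nucleus, 8.03 and 7.64 in cortex, and 7.57 and 7.84 in hippocampus, and so did not follow Clcn2. Of 18 measured volume-regulated and other anion channel genes, Ttyh2 differed most, with 8.11 and 7.84 in the nucleus, 7.30 and 7.13 in cortex, and 5.45 and 6.45 in hippocampus. Ttyh2 put the 6 arrays in the same order as Slc12a2 and the mean of the oligodendrocyte markers, while Clic4 did not. The share of all genes with that order was not counted. Its log2 fold change was 0.76 relative to cortex (adjusted p = 0.702 from limma) and 2.02 relative to hippocampus (adjusted p = 0.274). Relative to cortex it was 1.02 when the cortex array of mouse 355 was left out and 0.49 when that of mouse 511 was. Clic4, an intracellular chloride channel protein, had 9.10 and 9.63 in the nucleus, 8.85 and 8.75 in cortex, and 7.58 and 7.99 in hippocampus. Best1, a calcium-activated bestrophin channel, was dim but higher in both nucleus arrays, with 4.21 and 4.02 there, 3.04 and 3.12 in cortex, and 3.6 and 3.03 in hippocampus.

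Glycine receptors are themselves chloride channels and thus read out the gradient that the cotransporters set. Glra2, the subunit gene best known from the developing brain, was at least 3.11-fold higher in the nucleus in every comparison, with 7.04 and 7.22 there, 5.41 and 5.32 in cortex, and 4.39 and 4.90 in hippocampus (log2 fold changes 1.77 and 2.49, adjusted p = 0.31 and 0.152 from limma). The difference to the cortex was 1.98 with the cortex of mouse 355 left out and 1.55 with the cortex of mouse 511 left out. Glra2 too stands on the study's list. For Glra2 the study also reported quantitative PCR on the same cDNA, public in situ and array databases, and antibody staining. It reported the PCR and the databases for Glra1 and Glra3 as well. In that PCR the excess of Glra1 in the nucleus over the cortex was not significant. The array database was read for the lateral hypothalamus, not for the parvafox nucleus. The study's immunoblot found the Glra2 protein in cortex and hippocampus as well as in hypothalamus. Glra3 had 5.90 and 7.09 in the nucleus, 6.15 and 2.67 in cortex, and 2.52 and 3.01 in hippocampus, and Glra1 had 5.62 and 4.90 in the nucleus, 6.55 and 3.97 in cortex, and 3.67 and 3.50 in hippocampus. In the cortex of mouse 355, which differed from that of mouse 511 in Neurod6 and Slc17a6, Glra1 had its highest and Glra3 its second highest value. In each nucleus array both exceeded the cortex of mouse 511 and the hippocampus of either mouse. The list of 5 measured subunit genes had a median difference of 0.83. Glra4 had 3.36 and 3.26 in the nucleus, 2.76 and 3.04 in cortex, and 2.84 and 2.77 in hippocampus. Glrb had 8.34 and 7.85 in the nucleus, 8.48 and 8.26 in cortex, and 8.02 and 8.24 in hippocampus. Against the hippocampus of the same mouse, Slc12a2, Glra1, Glra2, Glra3 and Glra4 were higher in the nucleus in 2 of 2 mice. Glrb was higher in mouse 355 and lower in mouse 511. The share of all genes higher in both mice was not counted.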

How the data were processed

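RNA of 3 brain regions of 2 mice (parvafox nucleus, cerebral cortex, hippocampus) was amplified and hybridized to 6 arrays, with 1 array per region and mouse. The authors normalized the arrays by RMA (Expression Console 1.2.1.20 of Affymetrix), and the deposited values are log2 signals. The build behind the array annotation is not given in the sources used here.

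From these values, limma 3.58.1 in R 4.3.3 was fitted to all 41345 probe sets with region and mouse as terms (2 residual degrees of freedom, a prior of 2.769), and the eBayes p-values of the whole array were adjusted together (Benjamini-Hochberg), with 0.05 as threshold. The 95% intervals come from the same fit. The regions were cut from the same animals, so the mouse is a block in the design. Over all probe sets, the mouse differences of 2 regions correlated at 0.0794 (nucleus, cortex), 0.0587 (nucleus, hippocampus) and 0.0603 (cortex, hippocampus). The study's rule of 2-fold in all 4 within-mouse comparisons has no test. Precision is limited by having 2 mice, and an array signal has no counting depth.

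A gene is represented by its brightest probe set of exactly 1 symbol. The text names all 9 genes, of each related list every gene past the 2-fold rule and otherwise up to 3 with the largest mean difference, for a gene past the rule the 3 most like it, and up to 3 examples of a marker list. Outside this rule, Slc12a1 and Slc12a3 are the kidney members named with their list, and Glra4 and Glrb complete the glycine receptor list. Hcrt, Ttr and Folr1 were picked as defining markers. The 9 genes and all lists were chosen with earlier results of these data known. The bases before the start sites come from RefSeq (GRCm38.p6), which has entries for 8 of the 9 genes. Alternatives were a fit without the block, the mouse as random effect, leaving out each array, median centring, cyclic loess, fewer probe sets, an intensity trend, the mean over probe sets, folds of 1.5 and 3, and the mean of the mice. Chosen after seeing the data, the Slc12a2 and Slc12a5 difference was also computed after cyclic loess and per mouse, and the fold changes of named related genes without either cortex array. Python 3.11.15 with pandas 2.3.3 and matplotlib 3.10.9 made the tables and figures.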

Additional observations from a re-analysis of the deposited data

How the results depend on the processing

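Under 14 alternatives for each of 27 differences (9 genes in 3 comparisons), none of 378 values passed the adjusted p threshold in limma, with a lowest adjusted p of 0.0847 for Ano4 against the hippocampus, where a gene is the mean over its probe sets. With the main settings 2, 4 and 3 of the 9 genes had an unadjusted p under 0.05. Without the mouse block, 0 of the 9 genes passed in any comparison, and the lowest adjusted p among them was 0.277 against the cortex and 0.148 against the hippocampus, while 6 and 20 probe sets of the whole array passed in place of 0 and 1. The count of genes at least 2-fold higher (Ano4) became 0 at a fold of 3 and stayed 1 under the other alternatives. The count of genes at least 2-fold lower lay between 0 and 1 when each array was left out, with Ano2 counted without the nucleus array of mouse 355.

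The sign turned in 13 of the 27 differences, each of which is smaller in the report than the gap between the mice. With 1 array left out, the log2 difference of nucleus and cortex ranged between -0.23 and 0.45 for Slc12a5, -0.50 and 0.61 for Slc12a7, -0.19 and 0.32 for Clcn2, and -0.30 and 0.19 for Clcn3. Between nucleus and hippocampus it ranged between -0.53 and 0.63 for Slc12a5, -0.46 and 0.65 for Slc12a7, and -0.22 and 0.21 for Clcn3. Between cortex and hippocampus it ranged between -0.13 and 0.30 for Slc12a4, -0.63 and 0.52 for Slc12a5, -0.28 and 0.36 for Slc12a7, -0.20 and 0.30 for Clcn3, -0.79 and 0.38 for Ano2, and -0.19 and 0.41 for Ano4. Median centring made the nucleus and hippocampus difference of Slc12a5 -0.0035, cyclic loess made that of Clcn3 0.0422, and the mean over probe sets made the cortex and hippocampus difference of Slc12a4 -0.0956. Fewer arrays were fitted where 1 was left out, and the cause of the other turns was not tested. For Slc12a2, Slc12a4, Ano2, Ano4 and Car7 the sign of the nucleus against both regions turned under none of the 14 alternatives, but the size often depended on 1 array. Relative to cortex, leaving out 1 array gave between 0.04 and 1.04 for Slc12a2, -0.62 and -0.19 for Slc12a4, -1.5 and -0.34 for Ano2, 1.08 and 1.68 for Ano4, and -0.73 and -0.55 for Car7. Relative to hippocampus it gave between 1.14 and 2.25 for Slc12a2, -0.43 and -0.20 for Slc12a4, -1.53 and -0.71 for Ano2, 1.34 and 1.65 for Ano4, and 0.08 and 0.30 for Car7.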
